A study of Homo sapiens and Mus musculus with 4 samples.

Results

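The genes described here are 10 regulators of the passage from G1 into S phase, chosen by name; the rule uses no measured value. They are the D-type cyclins CCND2 and CCND3, the E-type cyclins CCNE1 and CCNE2, the kinases CDK4 and CDK6, the INK4 inhibitors CDKN2A and CDKN2C, the CIP/KIP inhibitor CDKN1B and the retinoblastoma gene RB1. The human genes were read in the 2 human lines and the mouse genes of the same symbol in the 2 mouse lines, which gave 20 genes, 10 human and 10 mouse, of 60736 in the table. All 20 were present in it. Although the rule uses no value, the genes were chosen with earlier results of these data known.

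Polyadenylated RNA of 4 established lymphoid cell lines was sequenced in bulk, with 1 library per line, as a baseline for single-cell methods. The human lines both derive from T-cell leukaemias, Jurkat being used as a CD4+ and TALL104 as a CD8+ line, and the culture of TALL104 contained interleukin-2. The study describes TALL104 as harder to culture than the other lines, with slow growth and reduced viability. The mouse lines are EL4, a lymphoma line used as CD4+ T cells, and IVA12, a hybridoma of B lineage, which is a fusion of a B cell with a myeloma cell. None of the lines carried an engineered allele or a treatment that the labels name, and each is a transformed line represented by a single culture, so that line, donor or strain, culture medium and library cannot be told apart. No spread between replicates exists for any value below, no test was made, and the intervals given are 95% intervals that cover the counting of reads only. PCR copies are not independent molecules, so even this part of the error is understated.

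Values are FPKM, fragments scaled by gene length and by the counted reads of the library. The recovered library totals ranged from 25286728 reads (IVA12) to 34783047 (Jurkat), with 28345951 for TALL104 and 32149319 for EL4. Between 9596 and 10857 genes of the own species reached 1 FPKM in a library. The mitochondrially encoded genes took a larger part of own-species FPKM in the human libraries (Jurkat 14.9%, TALL104 20.6%) than in the mouse libraries (EL4 5.04%, IVA12 4.79%). All 7 T-cell markers examined reached 1 FPKM in Jurkat, TALL104 and EL4, and 2 of 7 did so in IVA12. CD4 itself was below 1 FPKM in Jurkat, at 0.985, and Cd4 was at 0.208 in EL4, whereas CD8A was at 28.3 in TALL104. In IVA12 all 6 plasma-cell markers reached 1 FPKM, and of the B-cell markers Cd79b and Ms4a1 did. The defining B-cell genes Cd79a, at 0.0543, and Pax5, at 0.156, were near 0 there. Of the 6 B-cell markers, 1 reached 1 FPKM in Jurkat, 3 in TALL104 and 0 in EL4. CD79A was at 16.5 FPKM in Jurkat and 24.6 in TALL104. Of the 6 plasma-cell markers, 2 reached 1 FPKM in Jurkat, 3 in TALL104 and 2 in EL4, so these lists were not confined to IVA12. None of the myeloid markers found (4 human, 3 mouse) reached 1 FPKM.

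In cycling cells, growth signals raise D-type cyclins, which bind and activate CDK4 or CDK6. These kinases begin the phosphorylation of the RB protein, which otherwise holds E2F transcription factors in check. Released E2F raises the E-type cyclins, whose partner CDK2 completes RB phosphorylation, and the genes of DNA synthesis. INK4 proteins bind CDK4 and CDK6 directly, while p27, the product of CDKN1B, acts mainly on cyclin E with CDK2. In lymphocytes CCND2, CCND3 and CDK6 are the usual forms of the first step, and loss of the CDKN2A locus is frequent in T-cell leukaemia.

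Each of the 4 libraries had its own set of these transcripts. Jurkat combined CCND3 with high CDK6, CDK4 and RB1, and TALL104 combined CCND2 and CCND3 with much less of both E-type cyclins. EL4 held Ccnd2, similar levels of Cdk4 and Cdk6 per length and mostly Ccne1, while IVA12 held Ccnd2 at 247 FPKM, Cdk4 almost without Cdk6, and Cdkn2a at 116 FPKM. In bulk RNA, fewer cells in a given phase of the cycle and less of a transcript per cell cannot be told apart.

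**Figure D1:**
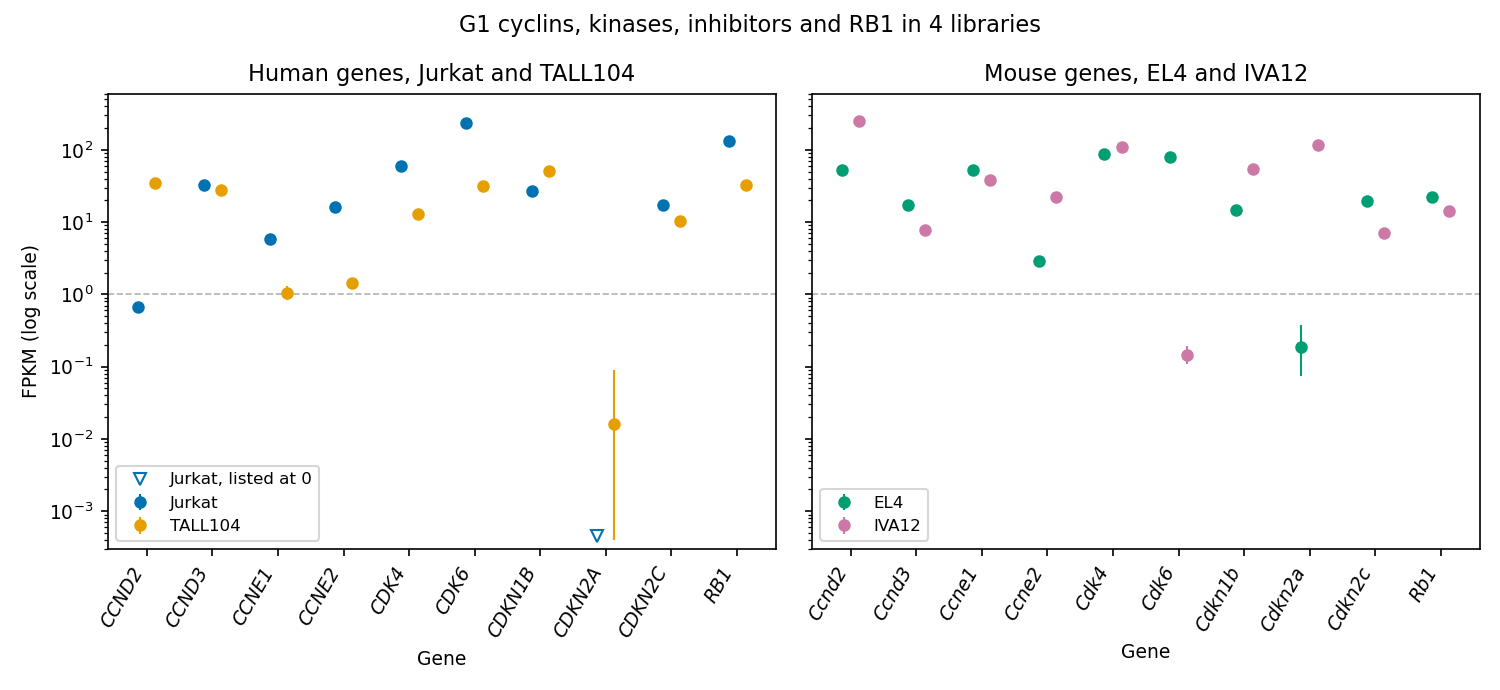
FPKM (log axis) of the 10 genes in the human lines (left) and the mouse lines (right), 1 point per library, with 95% Poisson intervals where they are wider than the point; the dashed line is 1 FPKM and the open triangle, placed at the bottom of the axis, is a gene listed at 0. CCND2, CDKN2A, Cdk6 and Cdkn2a are the genes with a library below 1 FPKM.

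Counting a gene as different when its ratio of FPKM + 1 was past 1.5-fold, 8 of the 10 human genes differed between Jurkat and TALL104. CCNE1, CCNE2, CDK4, CDK6, CDKN2C and RB1 were higher in Jurkat, and CCND2 and CDKN1B were higher in TALL104. The same threshold was passed by 25.3% of all human genes and by 62.6% of the human genes that reached 1 FPKM in one line or both, 13.8% of all genes being higher in Jurkat and 11.4% in TALL104. Of the mouse genes, 8 of 10 were past the threshold as well. Ccnd3, Cdk6, Cdkn2c and Rb1 were higher in EL4, and Ccnd2, Ccne2, Cdkn1b and Cdkn2a were higher in IVA12. In the mouse pair the share was 21.0% of all genes and 50.3% of the genes that reached 1 FPKM in one line or both, with 9.75% higher in EL4 and 11.2% higher in IVA12. The median log2 ratio of the 10 genes was 1.199 in the human pair, Jurkat over TALL104, and 0.06 in the mouse pair, EL4 over IVA12. Among all genes reaching 1 FPKM in each line of a pair the median was 0.11 (human) and -0.02 (mouse), so human differences are to be read against a shift of 0.11 toward Jurkat. With 10 genes a pair, nothing particular to the set is read from these counts. The genes past the threshold in both pairs were 6, namely CCND2, CCNE2, CDK6, CDKN1B, CDKN2C and RB1.

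**Figure D2:**
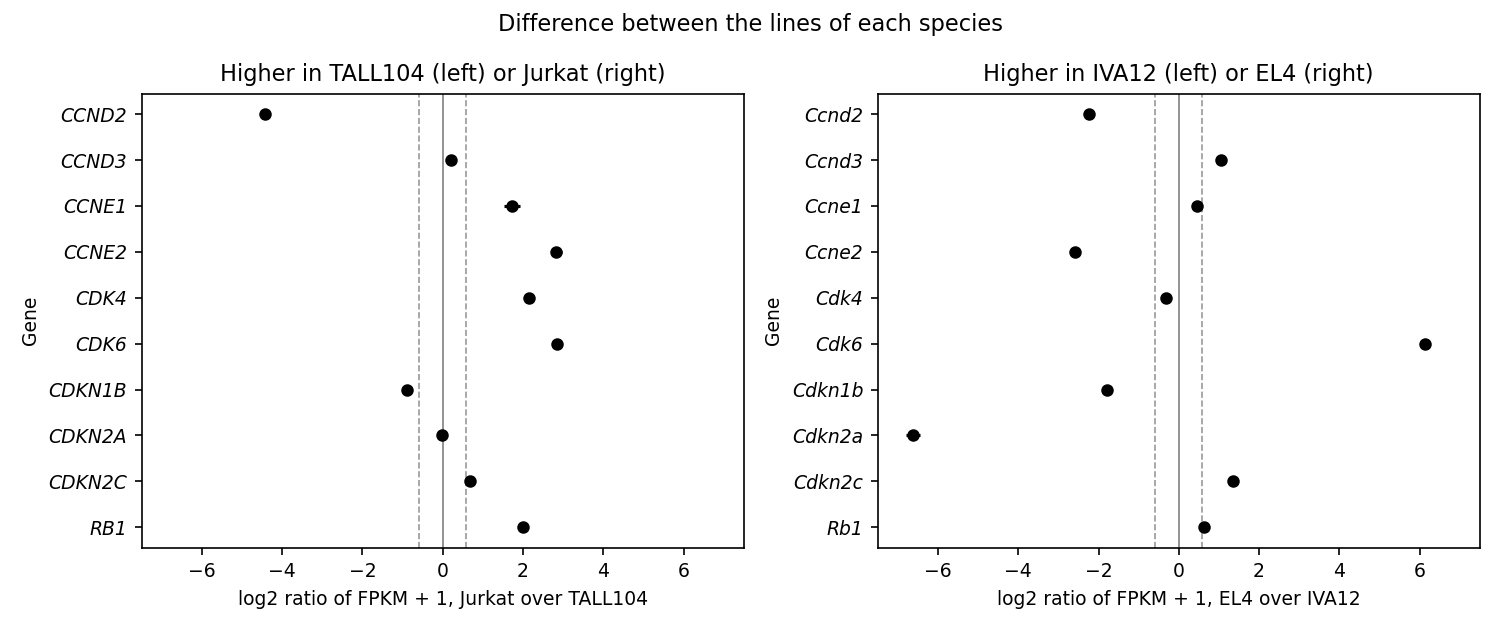
Log2 ratio of FPKM + 1 for each gene, Jurkat over TALL104 (left) and EL4 over IVA12 (right), 1 library per line, with bars for the 95% counting interval and dashed lines at 1.5-fold. The points farthest from 0 are CCND2 at -4.43 in the human pair, and Cdkn2a at -6.62 and Cdk6 at 6.13 in the mouse pair.

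D-type cyclins. The lines differed mainly in CCND2 (human chr12:4378937-4414519, hg19, plus strand; mouse chr6:127125162-127152193, mm10, minus strand). CCND2 stood at 0.675 FPKM in Jurkat (168 reads, interval 0.577 to 0.785) and at 35.1 in TALL104 (34.3 to 35.9), 52.0-fold higher in TALL104 (44.6 to 60.9). Mouse Ccnd2 was at 51.7 FPKM (50.9 to 52.5) in EL4 and 247 (245 to 249.3) in IVA12, 4.78-fold higher in IVA12 (4.70 to 4.87). The gene was thus under 1 FPKM in Jurkat alone. In IVA12 it lay above 98.4% of the genes detected at 1 FPKM.

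CCND3 (human chr6:41902672-42018095, minus strand; mouse chr17:47505051-47599691, plus strand), the D-type cyclin that thymocyte expansion depends on, was at 32.4 FPKM (31.6 to 33.3) in Jurkat and 27.8 (26.9 to 28.6) in TALL104. The human difference of 1.17-fold (1.12 to 1.21) did not reach 1.5-fold. Mouse Ccnd3 was at 17.2 FPKM (16.8 to 17.7) in EL4 and 7.75 (7.39 to 8.13) in IVA12, 2.22-fold higher in EL4 (2.10 to 2.35).

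Within the family, CCND3 made up 97.7% of summed D-type cyclin FPKM in Jurkat (97.4 to 98.1), 43.9% (43.0 to 44.9) in TALL104, 21.8% (21.3 to 22.4) in EL4 and 2.93% (2.79 to 3.06) in IVA12. These intervals cover the counting of reads only, so their separation does not measure any spread between cultures. CCND2 made up 2.03%, 55.4%, 65.5% and 93.4% in the same order, so the leading D-type cyclin was CCND3 in Jurkat and CCND2 in the other 3 libraries. CCND1, which is not a usual lymphoid form, was below 1 FPKM in both human lines, at 0.0774 in Jurkat and 0.394 in TALL104. Mouse Ccnd1 was at 9.98 FPKM in EL4 and 9.78 in IVA12, or 12.6% and 3.69% of the family. Summed family FPKM was 33.2 in Jurkat and 63.2 in TALL104, and 78.9 in EL4 and 265 in IVA12. Own-species FPKM totals were 253749 (Jurkat), 252442 (TALL104), 321758 (EL4) and 322905 (IVA12), so the sums are not ranked across species.

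Kinases of the D-type cyclins. CDK6 (human chr7:92234235-92465887, minus strand; mouse chr5:3341485-3531008, plus strand) was at 235 FPKM (233 to 236) in Jurkat and 31.8 (31.2 to 32.4) in TALL104, a 7.38-fold difference (7.23 to 7.52). In Jurkat, with 100153 reads, it ranked at position 90 of the human genes. Mouse Cdk6 was at 79.5 FPKM (78.7 to 80.3) in EL4 and 0.147 (0.110 to 0.193) in IVA12, where it rested on 52 reads. The mouse difference was 541-fold (412 to 724). The level in IVA12 is close to that of human CDK6 in the same mouse library, which was listed at 0.145 FPKM with 45 reads, so that the part of it that comes from the IVA12 cells was not tested.

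CDK4 (human chr12:58141510-58149796, minus strand; mouse chr10:127063534-127067920, plus strand) was at 60.6 FPKM (59.1 to 62.0) in Jurkat and 12.9 (12.2 to 13.6) in TALL104, 4.70-fold higher in Jurkat (4.42 to 5.01). Mouse Cdk4 was at 86.2 FPKM (84.5 to 88.0) in EL4 and 108 (106 to 110) in IVA12. This 1.25-fold difference (1.22 to 1.29) was beyond counting error but under the 1.5-fold threshold. Of the summed CDK4 and CDK6 level, CDK6 took 79.5% (79.1 to 79.9) in Jurkat, 71.2% (69.9 to 72.4) in TALL104, 48.0% (47.4 to 48.5) in EL4 and 0.136% (0.0989 to 0.173) in IVA12. Per length, CDK6 thus led in the human lines, the kinases were close to even in EL4, and IVA12 was almost wholly Cdk4. In reads not divided by gene length, in which the longer CDK6 weighs more, its share was 79.9% in EL4 and 0.582% in IVA12. Both kinases together came to 295 FPKM in Jurkat and 44.7 in TALL104, and to 166 in EL4 and 108 in IVA12.

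The promoter of human CDK4 is shown because it holds several copies of an E-box, the word bound by MYC family proteins, and because MYC and CDK4 were both higher in Jurkat than in TALL104. The 250 bases before the start site, from RefSeq on GRCh38.p14 (chr12:57752311-57752560, minus strand), read 5′ to 3′ as follows, with CACGTG in capitals.

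CDK4: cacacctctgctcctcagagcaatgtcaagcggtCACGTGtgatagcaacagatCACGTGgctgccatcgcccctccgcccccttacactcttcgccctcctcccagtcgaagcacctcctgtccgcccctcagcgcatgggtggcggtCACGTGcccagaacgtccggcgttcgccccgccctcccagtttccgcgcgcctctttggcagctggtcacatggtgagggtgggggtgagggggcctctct

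CACGTG, which reads the same on both strands, occurred 3 times in this window, and at least 3 copies were found in 0.0944% of the 34943 RefSeq promoter windows of 300 bases (250 before to 50 after the start), while at least 1 was found in 7.23%. The window was picked for these copies, so the share describes that choice and is no test. Of the other members with a window, CDK6 and CDKN2C also held CACGTG, at 1 copy in a window. A match of letters is a description and does not show binding. MYC, one of the listed genes upstream of the D-type cyclins and singled out here after its values were seen, was at 96.8 FPKM in Jurkat and 20.4 in TALL104, a 4.75-fold difference (4.51 to 5.003). In the mouse pair Myc was at 51.9 FPKM in EL4 and 195 in IVA12, beside Cdk4 at 86.2 and 108. On the opposite strand, CDK4 overlaps TSPAN31, which was listed at 0 in Jurkat and at 7.18 FPKM in TALL104. The mouse gene Tspan31 was at 0.103 FPKM in EL4 and 36.96 in IVA12, whereas Cdk4 in that pair was 1.25-fold apart. The library kit keeps strand, but the strand setting of the counting is not given in the sources used here, and reads of overlapping genes may not be separated. The same limit holds for CDK6 with CDK6-AS1, at 23.0 FPKM in Jurkat and 0.0529 in TALL104.

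E-type cyclins. CCNE2 (human chr8:95891998-95908906, minus strand; mouse chr4:11191351-11204779, plus strand) and CCNE1 (human chr19:30302898-30315219, plus strand; mouse chr7:38097984-38107534, minus strand) activate CDK2. CCNE2 was at 16.4 FPKM (15.7 to 17.0) in Jurkat and 1.452 (1.25 to 1.68) in TALL104, 11.3-fold higher in Jurkat (9.69 to 13.2). CCNE1 was at 5.80 FPKM (5.31 to 6.32) in Jurkat and 1.06 (0.835 to 1.32, 77 reads) in TALL104, 5.48-fold higher in Jurkat (4.31 to 7.06). Both E-type cyclins were therefore near 1 FPKM in TALL104 and well above it in Jurkat.

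In the mouse lines, Ccne1 was at 53.0 FPKM (51.5 to 54.6) in EL4 and 38.7 (37.2 to 40.2) in IVA12, 1.37-fold apart (1.31 to 1.44). Ccne2 was at 2.87 FPKM (2.57 to 3.21) in EL4 and 22.3 (21.3 to 23.3) in IVA12, 7.76-fold higher in IVA12 (6.90 to 8.76). The family thus differed between EL4 and IVA12 in its make-up more than in its sum, which was 55.9 and 61.0 FPKM. CCNE2 supplied 73.8% of E-type FPKM in Jurkat (72.01 to 75.7), 57.8% (51.3 to 64.3) in TALL104, 5.14% (4.59 to 5.69) in EL4 and 36.6% (35.2 to 37.9) in IVA12. Summed D-type FPKM stood at 25.2 times summed E-type FPKM in TALL104, whereas the ratio was 1.497 for Jurkat, 1.41 for EL4 and 4.34 for IVA12.

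**Figure D3:**
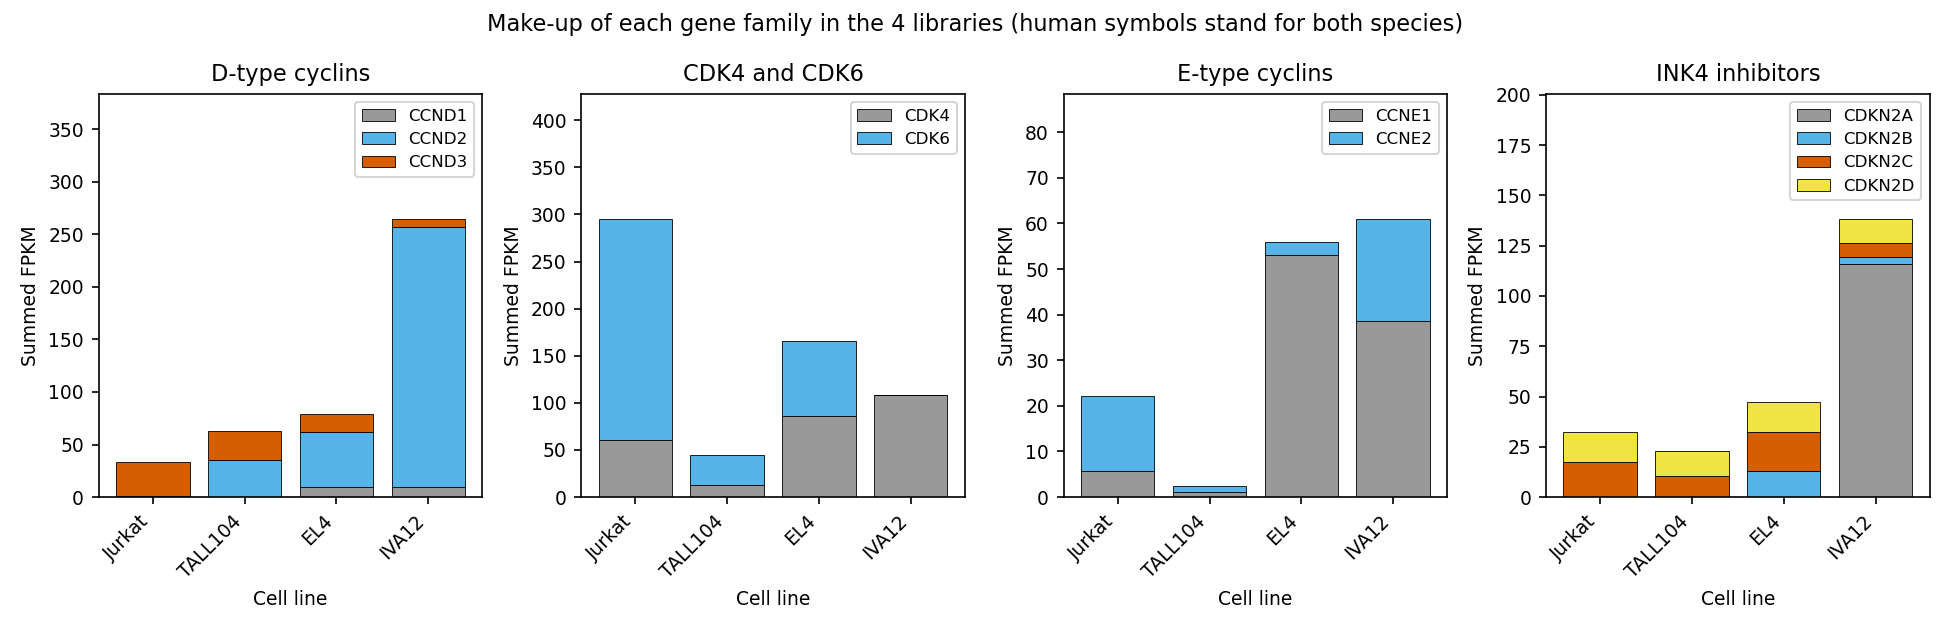
Summed FPKM of the D-type cyclins, CDK4 and CDK6, the E-type cyclins and the INK4 inhibitors in each library (1 per line), split by gene, with human symbols standing for both species. CCND3 fills the Jurkat bar of the D-type cyclins (97.7%), Cdk4 the IVA12 bar of the kinases, and Cdkn2a most of the IVA12 bar of the INK4 inhibitors (83.6%).

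INK4 inhibitors. CDKN2A (human chr9:21967751-21995300, minus strand; mouse chr4:89274471-89294653, minus strand) encodes p16 and, from another first exon and reading frame, ARF, and values per gene do not separate these products. Human CDKN2A was listed at 0 in Jurkat, where 3 reads would have given 0.0392 FPKM, and at 0.0160 FPKM in TALL104 (0.000406 to 0.0893). The TALL104 value is 1 read at the shortest gene length that the table allows. Both are at or under what a count of 0 allows, and no fold is given. Mouse Cdkn2a was at 0.186 FPKM in EL4 (7 reads, 0.0747 to 0.383) and at 116 in IVA12 (112 to 120), 623-fold higher in IVA12 (302 to 1551). It was therefore near 0 in all 3 T-cell lines and among the upper genes of the B-lineage line, above 95.9% of the genes detected there. Reads of the other species on the members reached 0.0393 FPKM in EL4 and 0.145 in IVA12. The source of the 7 reads in EL4 was not tested, and the size of the mouse fold rests on them.

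CDKN2C (human chr1:51426417-51440306, plus strand; mouse chr4:109660876-109667189, minus strand), which encodes p18, was present in every library. It was at 17.3 FPKM (16.6 to 18.1) in Jurkat and 10.5 (9.85 to 11.2) in TALL104, 1.65-fold higher in Jurkat (1.53 to 1.78). This call is lost when the human libraries are scaled by their median ratio or to equal totals without mitochondrial genes, both of which give a log2 ratio of 0.57 in place of 0.67. Mouse Cdkn2c was at 19.7 FPKM (18.8 to 20.7) in EL4 and 7.10 (6.48 to 7.76) in IVA12, 2.78-fold higher in EL4 (2.51 to 3.08).

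One of the RefSeq windows of CDKN2C is shown because the gene is a textbook E2F target and because it is the window with E2F words among those of the 8 human genes with a window in the table, CCNE2 and CCND2 not being among these 8. The word searched on both strands was TTNNCGC, where each N had to be C or G. The 250 bases before this start (GRCh38.p14, chr1:50968456-50968705, plus strand) are printed 5′ to 3′ with the matches in capitals.

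CDKN2C: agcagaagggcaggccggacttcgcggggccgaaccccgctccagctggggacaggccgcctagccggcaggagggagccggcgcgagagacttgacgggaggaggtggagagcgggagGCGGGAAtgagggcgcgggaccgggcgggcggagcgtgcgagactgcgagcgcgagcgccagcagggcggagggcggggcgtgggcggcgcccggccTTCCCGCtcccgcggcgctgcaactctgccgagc

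The 2 matches lie 131 and 34 bases before the start, the first of them on the opposite strand. At least 1 such word was found in 12.9% of all windows and at least 2 in 1.77%. This window was picked for its matches, so these shares are no test. No other window listed for the 8 genes held this word, and the other CDKN2C windows held 1 CACGTG each. RB1 had only 1 listed window (GRCh38.p14, chr13:48476200-48476499). This window was not matched to the RB1 gene start given below on hg19, so the main RB1 promoter may not have been searched.

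The remaining INK4 genes were CDKN2B (p15) and CDKN2D (p19). CDKN2B was listed at 0 in Jurkat and at 0.0435 FPKM in TALL104 (5 reads), while mouse Cdkn2b was at 12.6 in EL4 and 3.61 in IVA12. CDKN2D lay between 12.0 FPKM (IVA12) and 15.1 (Jurkat), with TALL104 at 12.3 and EL4 at 14.8. INK4 FPKM in the human lines was accordingly almost all CDKN2C and CDKN2D, with CDKN2C at 53.4% (51.3 to 55.4) in Jurkat and 46.0% (43.3 to 48.6) in TALL104. In EL4 CDKN2C supplied 41.7% (39.9 to 43.5), and in IVA12 it supplied 5.13% (4.67 to 5.59; 10.9% in reads not divided by length) beside 83.6% for Cdkn2a. Summed CDK4 and CDK6 FPKM stood at 9.10 times summed INK4 FPKM in Jurkat, 1.959 times in TALL104, 3.50 times in EL4 and 0.782 times in IVA12. The IVA12 ratio counts all Cdkn2a transcripts, including those for ARF, which is not an INK4 inhibitor, so the order of kinases and inhibitors in that library is not settled.

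The genes around CDKN2A were examined in the same way. On human chromosome 9, MTAP, which encodes a purine salvage enzyme and is transcribed in most cells, was listed at 0 in Jurkat and at 0.0265 FPKM in TALL104 (6 reads). KLHL9, which lies beyond MTAP among the interferon genes, was at 0.0101 FPKM in Jurkat (2 reads) and 8.96 in TALL104 (1450 reads). The Jurkat value is under what a count of 0 allows and under the 4 reads of human KLHL9 in the mouse library IVA12, so no fold is given. The neighbours thus differed between the human lines at KLHL9, while MTAP, CDKN2A and CDKN2B were at or near 0 in both. IFNE was listed at 0 in Jurkat and at 0.168 in TALL104, DMRTA1 at 0 and 0.0127, and ELAVL2 at 0 in both. The mouse neighbours were transcribed in both lines, with Mtap at 93.8 FPKM in EL4 and 40.4 in IVA12 and Klhl9 at 29.7 and 12.4. In EL4, Cdkn2a at 0.186 FPKM therefore lay between Mtap and Cdkn2b, both of which were well above 1 FPKM. Dmrta1 was listed at 0 in EL4 and at 0.226 FPKM in IVA12, Elavl2 at 0 and 0.238, and Ifne at 0 in both.

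Within 1 Mb of CDKN2A, a window set after these values were seen, 23 human protein-coding genes were listed, many of them type I interferon genes that are silent in unstimulated cells. Of these, 20 were at 0 reads in Jurkat and 15 in TALL104. Those at 1 FPKM or more were FOCAD (5.99 in Jurkat, 3.44 in TALL104) and HACD4 (3.18 and 3.99), both beyond the interferon genes, and KLHL9 in TALL104. DNA was not measured, and whether the locus is present in these lines was not tested.

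**Figure D4:**
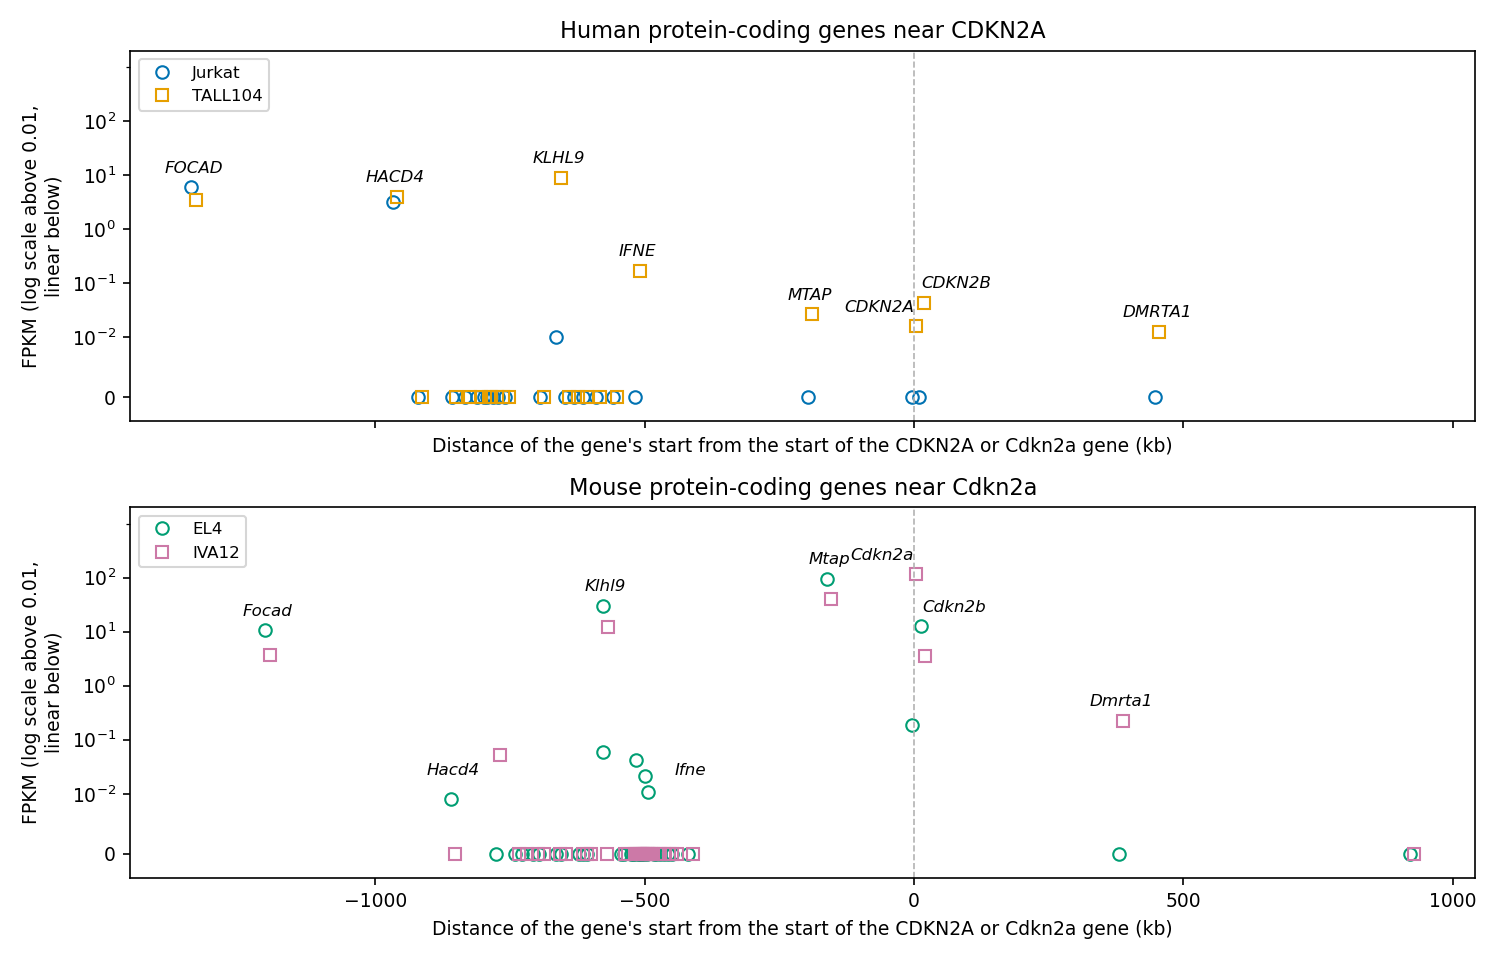
FPKM of protein-coding genes that lie at least partly within 1 Mb of CDKN2A in the human lines (top) and of Cdkn2a in the mouse lines (bottom) against the distance between gene starts in kb, 1 library per line; the vertical axis is logarithmic above 0.01 and linear below, and the series are offset sideways for legibility. In Jurkat no gene between KLHL9 and DMRTA1 was above 0, whereas Mtap and Cdkn2b were above 1 FPKM in both mouse lines.

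CIP/KIP inhibitors. CDKN1B (human chr12:12838432-12875303, plus strand; mouse chr6:134920401-134925513, plus strand) was at 26.5 FPKM (25.5 to 27.6) in Jurkat and 50.1 (48.6 to 51.7) in TALL104, 1.89-fold higher in TALL104 (1.80 to 1.99). Mouse Cdkn1b was at 14.7 FPKM (14.1 to 15.4) in EL4 and 53.7 (52.4 to 55.1) in IVA12, 3.65-fold higher in IVA12 (3.47 to 3.83). CDKN1B was higher in the same library as CCND2 in each pair. CDKN1A, which encodes p21, was at 0.356 FPKM in Jurkat and 13.8 in TALL104, 38.8-fold higher in TALL104 (28.0 to 55.4). Mouse Cdkn1a was at 15.9 in EL4 and 15.6 in IVA12. CDKN1C, which encodes p57, was under 1 FPKM in both human lines (0.422 in Jurkat and 0.0273 in TALL104) and at 0.610 in EL4 and 2.15 in IVA12. Summed CIP/KIP FPKM was 27.3 in Jurkat, of which CDKN1B took 97.1%, and 64.0 in TALL104, of which it took 78.3%. In EL4 the sum was 31.2 with 47.2% from Cdkn1b, and in IVA12 it was 71.5 with 75.2%.

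RB1 and its relatives. RB1 (human chr13:48877880-49173572, plus strand; mouse chr14:73183673-73325822, minus strand) was at 133 FPKM (131 to 135) in Jurkat and 32.4 (31.5 to 33.2) in TALL104, 4.11-fold higher in Jurkat (3.99 to 4.23). Mouse Rb1 was at 22.3 FPKM (21.7 to 23.0) in EL4 and 14.0 (13.4 to 14.6) in IVA12, 1.59-fold higher in EL4 (1.51 to 1.68), close to the threshold. RBL2, which encodes the p130 protein of quiescent cells, had the opposite order in the human pair, at 16.6 FPKM in Jurkat and 104.9 in TALL104, a 6.33-fold difference (6.12 to 6.54). RBL1, which encodes p107, was at 11.5 FPKM in Jurkat and 4.598 in TALL104.

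The leading transcript of the family thus differed among the libraries. RB1 made up 82.6% of the family in Jurkat (82.2 to 82.9), whereas RBL2 made up 73.9% (73.4 to 74.5) in TALL104. In the mouse lines RBL1 led, at 49.5% (48.6 to 50.4) in EL4 and 68.7% (67.8 to 69.7) in IVA12. Mouse Rbl1 was at 31.9 FPKM in EL4 and 44.1 in IVA12, and Rbl2 was at 10.3 and 6.02. On the opposite strand, RB1 overlaps LPAR6, at 1.93 FPKM in Jurkat and 124 in TALL104, and RCBTB2, at 22.7 and 162, both ordered against RB1.

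Other genes of the pathway, in lists defined by function, were read beside the 10 genes. These lists, too, were set with earlier results of these data known. All 14 E2F target genes of S phase were higher in Jurkat than in TALL104, with a median log2 ratio of 2.62. Among the human genes that reached 1 FPKM in one line or both, 34.2% were higher in Jurkat and 28.4% in TALL104 (median 0.10), and the human counts here are to be read against these shares. Among these, the transcription factor MYBL2 was at 87.2 FPKM in Jurkat and 3.37 in TALL104, and TYMS, the thymidylate synthase gene, at 267 and 13.9. Of the 10 E2F and DP factors, 8 were higher in Jurkat and none in TALL104 (median 1.93), with E2F2 at 14.2 and 1.01 FPKM and TFDP2 at 18.1 and 1.195. Of the 7 genes of CDK activation and protein turnover, 5 were higher in Jurkat (median 2.41). Among them were the phosphatase CDC25A, at 35.2 and 1.02 FPKM, and CKS2, a small CDK-binding protein, at 266 and 20.1. Of the 6 genes for CCND1, CCNA2, CDK2 and the CDK-activating kinase, 4 were higher in Jurkat (median 0.83), with CDK2 at 38.1 and 11.9 FPKM and CCNA2 at 76.9 and 4.65. These lists therefore lay on the same side as the E-type cyclins in the human pair, while CCND2, CDKN1A and CDKN1B lay on the other. Any part of the slow growth and reduced viability of TALL104 in these levels was not tested.

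In the mouse pair the same lists did not share a side. Of the genes that reached 1 FPKM in one line or both, 23.8% were higher in EL4 and 26.5% in IVA12 (median -0.04). Of the 14 S-phase genes, 4 were higher in EL4 and 2 in IVA12 (median 0.38), which is no more than the 50.3% of those genes past the threshold, with Pcna, the replication clamp, at 236 FPKM in EL4 and 122 in IVA12. Tk1, the cytosolic thymidine kinase, was at 0.00598 FPKM in EL4 (1 read) and 14.2 in IVA12, and it stood apart from the rest of its list. Of the 10 E2F and DP factors, 4 were higher in IVA12 and none in EL4 (median -0.38), with E2f1 at 11.7 FPKM in EL4 and 47.6 in IVA12 and E2f7 at 2.15 and 5.38. Of the 6 turnover genes found, 1 was higher in EL4 and 2 in IVA12 (median -0.39), Fbxw7 being at 4.13 and 10.1 FPKM and Skp2, which marks p27 for degradation, at 7.61 and 15.2. Of the 6 partner genes, 1 was higher in EL4 (median 0.37), Ccnh at 26.1 FPKM in EL4 and 16.5 in IVA12, and Mnat1 was at 9.03 and 5.90.

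The shorter lists gave mixed counts, too few to be set apart from the shares just given. Of the 4 other inhibitors, 1 was past the threshold in the human pair, higher in TALL104 (median 0.11, but -0.11 at a pseudocount of 0.1 FPKM), and 2 in the mouse pair, 1 in each direction (median 0.15). Of the 2 RB relatives, 1 was higher in each human line (median -0.71) and 1 was higher in EL4 (median 0.11). Of the 6 genes beside CDKN2A, 1 was higher in TALL104 (median -0.05, but -0.43 at a pseudocount of 0.1 FPKM), and 3 were higher in EL4 (median 0.60).

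Genes that act upstream of D-type cyclins differed in both directions. In the human pair, 2 of 8 were higher in Jurkat and 3 in TALL104 (median -0.15), a share past the threshold like the 62.6% of transcribed human genes. MYB was at 88.8 FPKM in Jurkat and 0.508 in TALL104, and IL2RA, the alpha chain of the interleukin-2 receptor, was at 0.0815 and 22.6. In the human pair IL2RA and CCND2 were both higher in TALL104. In the mouse pair they were ordered against each other, Il2ra being at 0.779 FPKM in EL4 and listed at 0 in IVA12, where Ccnd2 was higher. The STAT5 genes, which act downstream of that receptor, were not past the threshold in the human pair, STAT5A being at 11.1 FPKM in Jurkat and 13.6 in TALL104 and STAT5B at 23.6 and 20.6. Any part of interleukin-2 in the culture of TALL104 in these levels was not tested. In the mouse pair, 4 of 8 were higher in EL4 and 2 in IVA12 (median 0.59), with Myb at 64.2 FPKM in EL4 and 7.80 in IVA12. Notch1 was at 0.0131 FPKM in EL4 and 12.97 in IVA12.

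**Figure D5:**
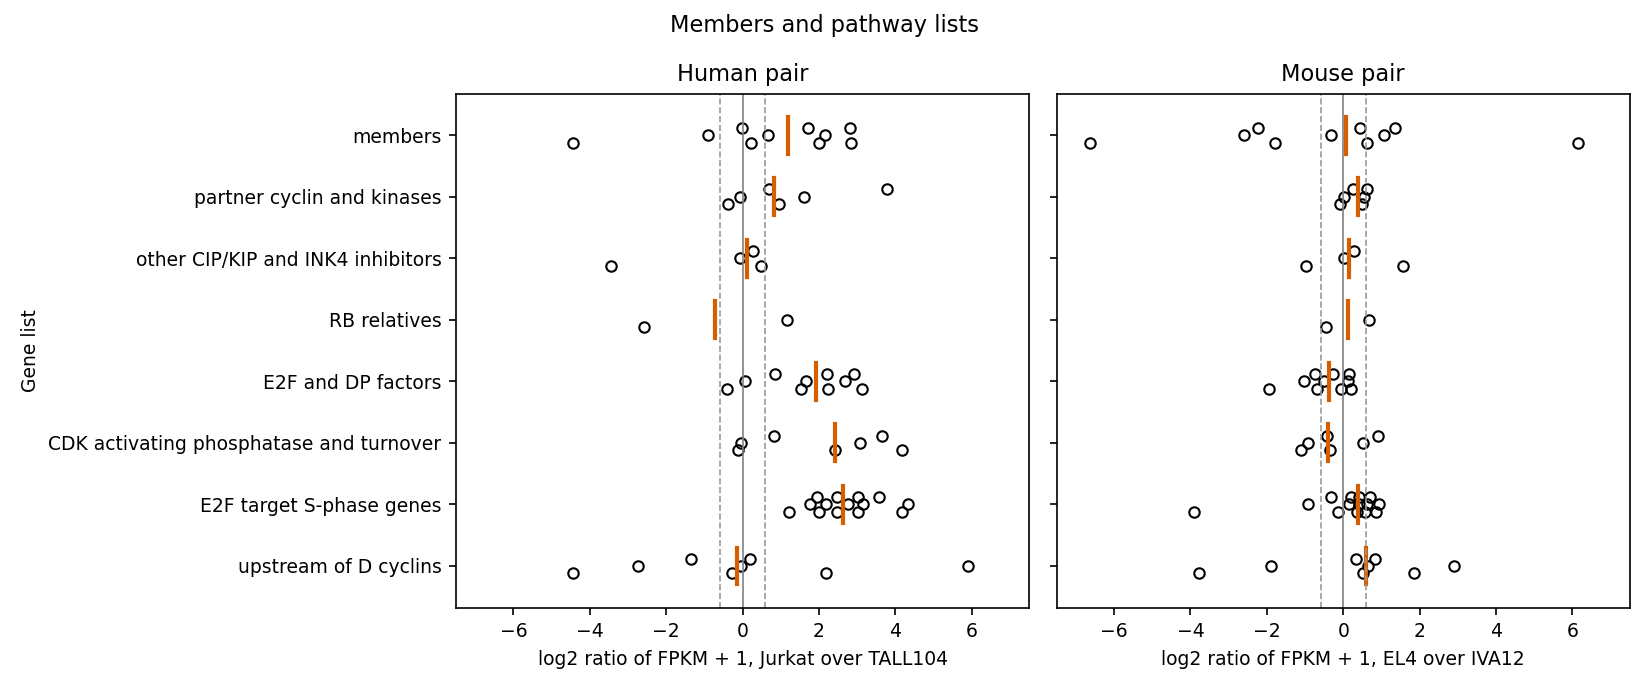
Log2 ratio of FPKM + 1 for each gene (open circles) of the 10 members and of the pathway lists, Jurkat over TALL104 (left) and EL4 over IVA12 (right), 1 library per line; vertical bars are list medians and dashed lines mark 1.5-fold. All 14 S-phase genes lie to the right in the human pair (median 2.62), and the mouse lists lie on both sides of 0.

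The genes whose levels over the 4 libraries lay nearest to those of a member were sought for the 6 members past the threshold in both pairs, among 15552 symbols shared by the species. Distance is Euclidean in log2(FPKM + 1) over 4 libraries, so these are descriptions from 4 points. CDKN2C had the closest neighbours, SRI at 0.303 and SRF at 0.407, followed by CDKN1B with TINF2 at 0.499 and SNX17 at 0.723. RB1 had CBX3 at 0.627 and RBMX at 0.675, and CCNE2 had PYCR1 at 0.977 and ALKBH2 at 1.03. CDK6 had ITM2A at 1.11 and then CD3G, a chain of the T-cell receptor complex, at 2.44. CCND2 had CRELD2 at 1.79 and CD44 at 2.21.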

How the data were processed

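One bulk RNA library per cell line was measured. Per the study's methods, total RNA was made into stranded, poly(A)-selected libraries, sequenced as paired reads of 101 bases, aligned with STAR 2.5.1b to the combined Cell Ranger 1.2.0 reference (hg19 and mm10) and counted with featureCounts 1.6.3. The authors deposited FPKM for human and mouse genes in 1 table. The sources used here give neither gene lengths nor the strand setting nor how multiply aligned reads were treated. Of the columns, 0 belonged to no sample.

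Reads were recovered from the FPKM steps with gene lengths up to 40000 bases and a relative tolerance of 1e-09. The annotated exon length was used where it was a whole multiple of the shortest length that fitted. This held in 10 of 10 mouse and 0 of 10 human members. Human reads may therefore be a whole fraction of the true reads, which would make the intervals too wide. Single values have exact Poisson intervals, folds (of FPKM, with no pseudocount) exact conditional binomial intervals, and shares delta-method intervals, all at 95%; a count of 0 allows 3 reads. A gene was called past 1.5-fold on FPKM + 1. The calculation was run on simulated data made with the annotated exon lengths. It therefore does not test lengths that differ from these, as those of the human members did. Reads were recovered exactly for 82.3% (human) and 80.7% (mouse) of 300 genes checked in each pair, and as a whole fraction for the others. Positions are from GENCODE 44 mapped to GRCh37 and M21 on GRCm38, by gene identifier. Python 3.11.15, NumPy 2.4.6, pandas 2.3.3, SciPy 1.17.1 and matplotlib 3.10.9 were used.

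The members and lists were chosen with earlier results of these data known. Named genes were all members, the 2 genes of each list farthest from 0 on the log2 scale in each pair, all genes beside CDKN2A and all other inhibitors, the 2 nearest genes of each member past the threshold in both pairs, and members with over 3 reads of the other species. Mouse SKP1 was not found under that symbol. Alternatives were other pseudocounts, filters, scalings and a 2-fold threshold, unscaled reads, and families without 1 gene. One marker gene is not reported here.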

Additional observations from a re-analysis of the deposited data

Results flagged for a closer look

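Reads on members of the species that a library does not contain lie outside the comparisons, and those over 3 reads were listed. In IVA12, human CDK6 had 45 reads (0.145 FPKM), RB1 13, CCND2 11, CDKN1B 8, CCND3 7, CDK4 5 and CDKN2C 4. In EL4, human CDK6 had 12 reads and CDK4 had 4. In Jurkat, mouse Ccnd2 had 23 reads, Cdkn2c 6, Cdkn1b 5 and Cdk4 4. In TALL104, mouse Ccnd2 had 12 reads, Cdk4 8 and Cdk6 5. The highest of these values was 0.145 FPKM, which bears on the results that rest on levels near it, Cdk6 in IVA12 at 0.147 FPKM and Cdkn2a in EL4 at 0.186 FPKM. The source of these reads was not tested. With 1 library per line, samples could not be compared for outliers.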

How the results depend on the processing

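No paired analysis was possible because each line has 1 library. The count of members past the threshold stayed within 1.5 times of 8 under each alternative run in both pairs. Human CDKN2C lost its call under both scalings named in the report, and human CDKN2A gained one at a pseudocount of 0.01 FPKM (log2 ratio -1.38, resting on 1 read). No direction of a called value reversed. With unscaled reads, in which longer genes weigh more, the share of CCND3 was 97.1% in Jurkat, 36.8% in TALL104 and 2.79% in IVA12; of CDK6 93.8%, 90.5%, 79.9% in EL4 and 0.582% in IVA12; of CCNE2 82.9%, 70.2%, 6.64% and 43.1%; and of CDKN2C 71.7%, 65.1%, 59.2% and 10.9%. In EL4, CCND3 took 25.0% without CCND1, and CDKN2C took 56.9% without CDKN2B. Human list medians at a pseudocount of 0.1 FPKM were -0.11 for other inhibitors, 2.19 for E2F and DP factors, 2.55 for CDK activation and turnover, 2.71 for S-phase genes and -0.43 for genes beside CDKN2A. Over genes of at least 1 FPKM in either line they were -1.58 for other inhibitors, 0.96 for partner genes and -3.30 beside CDKN2A, and the mouse median beside Cdkn2a was 1.197, since fewer genes were counted. With median-ratio scaling they were -0.82 for RB relatives, 2.31 for CDK activation and turnover, 2.51 for S-phase genes and -0.25 upstream of D-type cyclins. Depth limits CDKN2A in the human lines (0 and 1 reads) and Cdkn2a in EL4 (7 reads).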
